A study of Mus musculus with 14 samples.

Results

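The genes described here encode 7 subunits of the GABA-A receptor, measured in mouse hippocampus: Gabra2, Gabra3, Gabra4, Gabra5, Gabrb1, Gabrb2 and Gabrd. They were chosen by name, with earlier results of these data known. They make up 7 of the 19 annotated genes of the subunit family and 7 of the 18735 genes for which any transcript was assembled in the series. The study sequenced RNA from the hippocampus of C57BL6 mice aged 30 days, with 1 library taken as 1 mouse. Mice were wild type or heterozygous for KMT2D+/bGeo, a gene trap allele of Kmt2d. Each mouse was gavaged from 2 weeks of age for 2 weeks with TAK-418 at 1 mg/kg/day or with its methylcellulose vehicle. Vehicle was given to 3 wild types and 3 mutants, and TAK-418 to 5 wild types and 3 mutants. All 14 libraries thus come from animals that were handled and gavaged, and no untreated group was analysed here. The allele is present in every cell of the mutants as far as the labels say, and which part of Kmt2d the trap leaves intact is not given in the sources used here.

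GABA-A receptors are chloride channels that open when they bind GABA, the main inhibitory transmitter of the adult brain. Each channel is built from several subunits around a central pore. Alpha and beta subunits form the GABA sites, and a gamma or delta subunit usually completes the ring and decides much of where the channel sits and how it responds to drugs. In the hippocampus, channels with the alpha 2 subunit are found at synapses, including those on the axon initial segment of pyramidal cells. The alpha 5 subunit is typical of channels outside the synapse on pyramidal cells. The alpha 4 and delta subunits pair in channels outside the synapse on dentate granule cells, which carry a lasting, tonic current. KMT2D adds methyl groups to histone H3 at lysine 4, a mark of active promoters and enhancers. TAK-418 inhibits LSD1 (gene Kdm1a), a demethylase that removes such groups, and loss of 1 copy of KMT2D causes Kabuki syndrome in humans. The comparisons therefore ask whether the subunit genes differ with the allele, with the drug, or with both.

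Values are transcript abundances corrected for transcript length and library size (FPKM scale). They were summed per gene and scaled between libraries, so that levels can be compared between genes as well as between mice. By a relative depth worked out from the values, wild-type TAK-418 library 1 was the deepest, at 167.7 M (M, mega), and the other 13 had 35.1 to 59.95 M. It also had the most assembled transcripts (48428), but the size of its lead in depth is uncertain. As a check of the labels, Kmt2d itself was at 13.99, 14.2 and 13.8 in the wild-type vehicle libraries and at 10.6, 10.7 and 14.4 in the mutant vehicle libraries. It was at 13.8, 18.0, 12.5, 14.4 and 17.4 in the wild-type TAK-418 libraries and at 14.6, 13.3 and 9.34 in the mutant TAK-418 libraries, so both pairs of genotype groups overlapped. This total covers the whole gene and does not separate the trapped from the intact allele. Kdm1a was between 29.9 and 35.8 in all libraries. Markers of neurons, astrocytes, oligodendrocytes and dentate granule cells were present throughout. Markers of the choroid plexus, a neighbouring tissue, summed to 7227 in wild-type vehicle library 3, 5831 in mutant vehicle library 1, 1096 in mutant vehicle library 3 and 729 in mutant TAK-418 library 1, against 82.7 to 145 in the other 10. All 10 of those markers were listed in at least 1 library, and 1 to 5 of them were at 0 in each of the 11 libraries outside the 3 highest. In bulk RNA, fewer cells of a type and less RNA per cell cannot be told apart.

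Gabra5 had the highest level of the 7 genes in every library and the highest mean of the 16 family genes with a value. It averaged 132.8 FPKM over the 14 libraries with a coefficient of variation (CV, the SD as a share of the mean) of 5.48%. Next among the 7 genes came Gabra2 at 45.5 (CV 7.13%), Gabra4 at 42.9 (CV 5.23%) and Gabrb2 at 41.7 (CV 6.27%). The lower levels were those of Gabrb1 at 23.5 (CV 19.5%), Gabra3 at 18.0 (CV 8.96%) and Gabrd at 12.2 (CV 6.80%). Gabra5 stood 2.92 times above Gabra2 with no overlap between their ranges. Gabra2, Gabra4 and Gabrb2 could not be ordered beyond their spread: Gabra2 was above Gabra4 in 12 of 14 libraries and Gabra4 above Gabrb2 in 9 of 14. Gabrb2 was above Gabrb1 in all 14 libraries, by 1.78 times in the mean, and Gabra3 was above Gabrd in all 14, by 1.48 times. Gabrb1 exceeded Gabra3 in 13 of 14 libraries, with overlapping ranges. Among other family genes, the gamma subunit genes Gabrg1 and Gabrg3 averaged 7.23 and 3.44 FPKM. Gabrr2, Gabrq, Gabre and Gabrr1 had a value in 7, 7, 5 and 3 libraries, with means of 0.387, 0.227, 0.137 and 0.0775. No transcript of Gabra6, Gabrp or Gabrr3 was assembled in any library, although the authors' deposited tables give Gabrr3 at 0.112 to 0.157 FPKM.

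**Figure D1:**
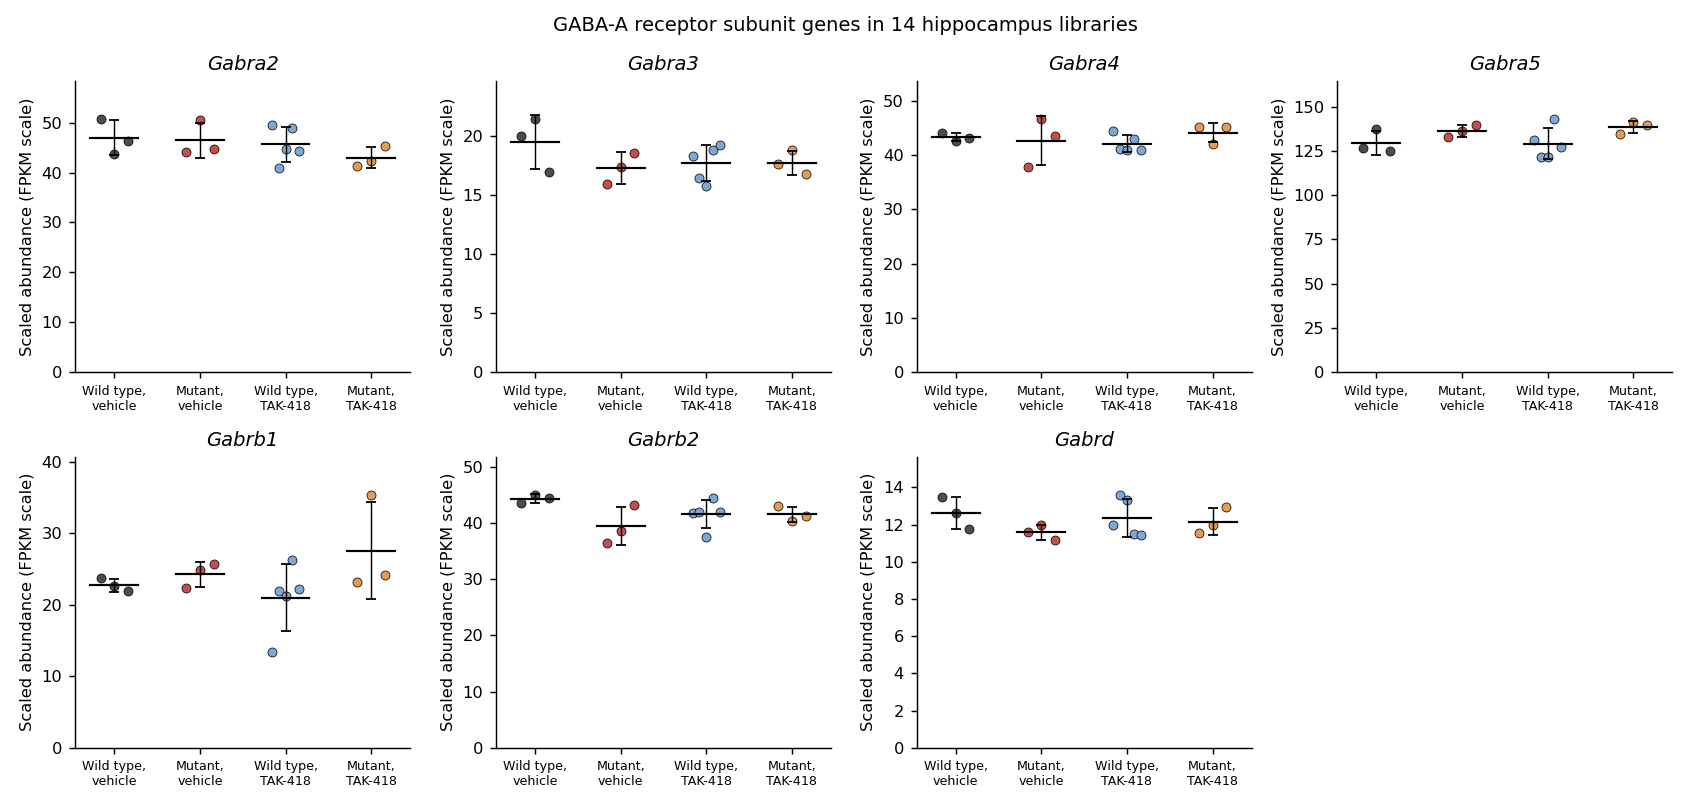
Scaled abundance of the 7 subunit genes on the FPKM scale (vertical axes, each from 0) in the 4 groups; each point is 1 library, and the bars are the group mean with its SD. Gabra5 sits near 130 in every group, and Gabrb1 shows its lowest point at 13.4 in a wild-type TAK-418 library and its highest at 35.4 in a mutant TAK-418 library.

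None of the 7 genes passed the test in any comparison. A single limma fit of 16580 genes, with Benjamini-Hochberg adjustment, gave 42 tests of these genes (7 genes in 6 comparisons). No adjusted p was below 0.05, the smallest being 0.682, and 1 of the 42 unadjusted p-values was below 0.05. The fitted differences lay between -0.17 and 0.38 on the log2(FPKM + 0.9) scale. The farthest 95% bound of any of them was 0.89, a 1.86-fold difference. The test called few genes anywhere. Called genes (adjusted p below 0.05) made up 0.0% of all genes tested for the genotype effect under vehicle, 0.00603% for TAK-418 in mutants and 0.0% for TAK-418 in wild types. For the genotype effect under TAK-418 the share was 0.0121%, and for treated mutants against vehicle wild types and for the interaction it was 0.00603% each. At an unadjusted p below 0.05 the shares of all genes in the same order were 5.48%, 4.4%, 8.43%, 4.95%, 5.38% and 4.45%. The single subunit gene among 7 under vehicle, and none of 7 in the other comparisons, stand beside those backgrounds.

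**Figure D2:**
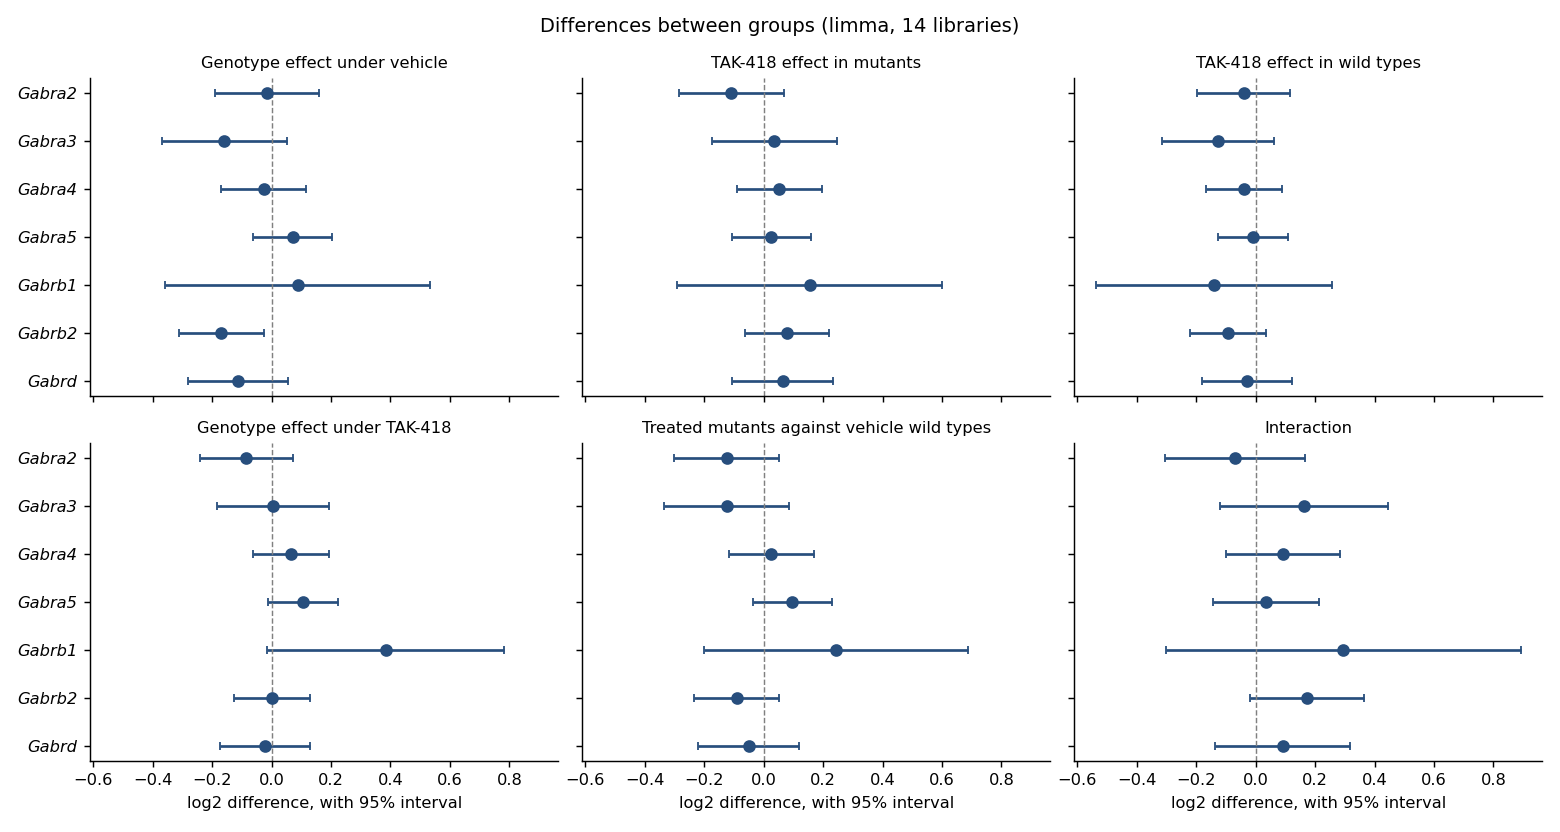
Fitted log2 differences (horizontal axes) of the 7 genes in the 6 comparisons, with 95% intervals from limma; the dashed line marks no difference. Of the intervals, the one for Gabrb2 under vehicle, -0.31 to -0.03, lies wholly on one side of the line, and those for Gabrb1 are the widest in each panel.

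Gabra5 (ENSMUSG00000055078.7, GRCm38 chr7:57407672-57510059, minus strand), the alpha subunit of tonic inhibition in pyramidal cells, did not pass the test in any comparison. Its level was 127, 138 and 125 FPKM in the wild-type vehicle libraries and 133, 136 and 140 in the mutant vehicle libraries. Under TAK-418 it was 131, 122, 122, 143 and 127 in wild types and 135, 142 and 140 in mutants. Wild-type and mutant values overlapped under either treatment, although the 3 treated mutants lay at the upper end of the range. Among the genes compared between treated mutants and vehicle wild types, Gabra5 had the smallest p of the 7. The means there were 138.7 ± 3.44 and 129.8 ± 6.86 (SD, n = 3 each), a log2 difference of 0.10 with an SE of 0.0604 (limma adjusted p = 0.978).

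The splicing ahead of the Gabra5 coding sequence varied between libraries more than the total did. Within each library the assembled transcripts shared a start, and their first exon ended at any of 3 splice sites. These lie 1040, 1601 and 1865 bases ahead of the first coding exon, with an optional 60-base exon 359 bases ahead of it. A first exon that ends at them is called nearest, middle or farthest here. All of these choices precede the coding sequence. The form that joins the farthest first exon directly to the coding exon led in 10 of 14 libraries, with 57.9% to 87.6% of the gene's abundance. In wild-type vehicle library 1 the leading form ran from the farthest first exon through the extra exon (87.6%). In wild-type TAK-418 library 3 the middle first exon joined directly led (69.5%), and in mutant vehicle library 2 and wild-type TAK-418 library 2 it was the middle first exon through the extra exon (81.7% and 88.3%). The 4 exceptions belonged to 3 of the 4 groups, and all 3 mutant TAK-418 libraries had the common form at 79.0% to 87.6%. The nearest first exon carried at most 9.75% in any library. These shares come from how the assembler joined exons, whose own error is unknown, and they are given without a test.

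Gabra2 (ENSMUSG00000000560.9, chr5:70957597-71095849, minus strand), the synaptic alpha subunit, stayed between 40.9 and 50.7 FPKM. It was at 50.7, 43.8 and 46.4 in wild-type vehicle, 44.2, 50.5 and 44.6 in mutant vehicle, 49.5, 40.9, 44.7, 48.9 and 44.3 in wild-type TAK-418, and 41.3, 42.2 and 45.3 in mutant TAK-418 libraries. Every group overlapped every other. For TAK-418 in mutants Gabra2 had the smallest p of the 7 genes, with means of 46.4 ± 3.52 and 43.0 ± 2.09 (SD, n = 3 each). The log2 difference of -0.11 (SE 0.0804) did not pass (limma adjusted p = 1, unadjusted 0.203). It came to -0.048 without mutant vehicle library 2, and to 0.00071 when each transcript's abundance was multiplied by its length before summing. Transcripts that do not span the coding region were assembled for Gabra2 in 13 of 14 libraries, with a median of 19.9% and up to 55.2% of its abundance.

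Gabra4 (ENSMUSG00000029211.11, chr5:71569749-71658308, minus strand), which pairs with the delta subunit in granule cells, had means of 43.3 ± 0.733 FPKM in wild types and 42.7 ± 4.48 in mutants given vehicle (SD, n = 3 each). With TAK-418 the means were 42.1 ± 1.56 in wild types (SD, n = 5) and 44.1 ± 1.75 in mutants (SD, n = 3). By library it was at 44.1, 42.7 and 43.2 in wild types and 37.8, 46.7 and 43.6 in mutants with vehicle, and at 44.4, 41.1, 41.0, 43.1 and 41.0 in wild types and 45.1, 42.1 and 45.2 in mutants with TAK-418. The lowest and the highest value of Gabra4 were both in mutant vehicle libraries, and all groups overlapped. Its log2 differences lay between -0.04 and 0.09 over the 6 comparisons.

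Gabra3 (ENSMUSG00000031343.13, chrX:72432681-72656848, minus strand), an alpha subunit gene on the X chromosome, was lower. It was at 20.04, 21.5 and 17.0 FPKM in wild-type vehicle and at 15.96, 17.4 and 18.6 in mutant vehicle libraries. With TAK-418 it was at 18.4, 16.5, 15.8, 18.9 and 19.2 in wild types and at 17.6, 18.9 and 16.8 in mutants. The highest values of Gabra3 were in wild-type vehicle libraries 1 and 2, while library 3 of that group lay inside the range of each other group. Its difference under vehicle was -0.16 (95% interval -0.37 to 0.05).

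The make-up of the 4 alpha genes was compared as well. As shares of their summed level in each library, which leaves out other alpha genes, Gabra5 made up 55.5% ± 1.55, Gabra2 19.0% ± 1.18, Gabra4 17.9% ± 0.745 and Gabra3 7.54% ± 0.567 (SD, n = 14). The Gabra5 share ran from 52.4% to 57.9%. Shares were compared between groups by exact two-sided permutation tests with Benjamini-Hochberg adjustment over 25 tests, which include the share of Gabrb2 described further on. None of the 25 adjusted p-values was below 0.05, and 2 unadjusted ones were. Groups this small leave little room to pass, since 3 against 3 cannot go below a p of 0.1 even before adjustment, so these tests do not show that the shares were stable. Both concern mutants against wild types under TAK-418 (n = 5 and 3), where the smallest p these group sizes allow is 0.0179. The Gabra2 share was 20.3%, 18.6%, 20.01%, 19.3% and 19.1% in the wild-type TAK-418 libraries and 17.3%, 17.2% and 18.4% in the mutant TAK-418 libraries. These ranges did not overlap, and the difference was -1.82 percentage points (exact permutation p = 0.0357, adjusted 0.446). The Gabra5 share was 53.9%, 55.3%, 54.6%, 56.4% and 54.9% in the wild types and 56.5%, 57.9% and 56.5% in the mutants. Again the ranges did not overlap, by a narrow margin, with a difference of 1.94 points (exact permutation p = 0.0357, adjusted 0.446). The 2 results are not independent, because a rise in 1 share lowers the others. Against vehicle wild types, whose Gabra5 shares were 52.4%, 56.05% and 53.98%, the treated mutants differed by 2.79 points (exact permutation p = 0.1, the smallest that 3 against 3 allow, adjusted 0.5). TAK-418 in mutants moved the Gabra2 share by -1.50 points (exact permutation p = 0.2, adjusted 0.5), and TAK-418 in wild types moved the Gabra3 share by -0.56 points (exact permutation p = 0.286, adjusted 0.625). The last value was -0.255 without wild-type vehicle library 2 and -0.958 without wild-type vehicle library 3. When abundance was multiplied by transcript length, the Gabra2 share in mutants moved by 0.396 points, in the opposite direction.

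**Figure D3:**
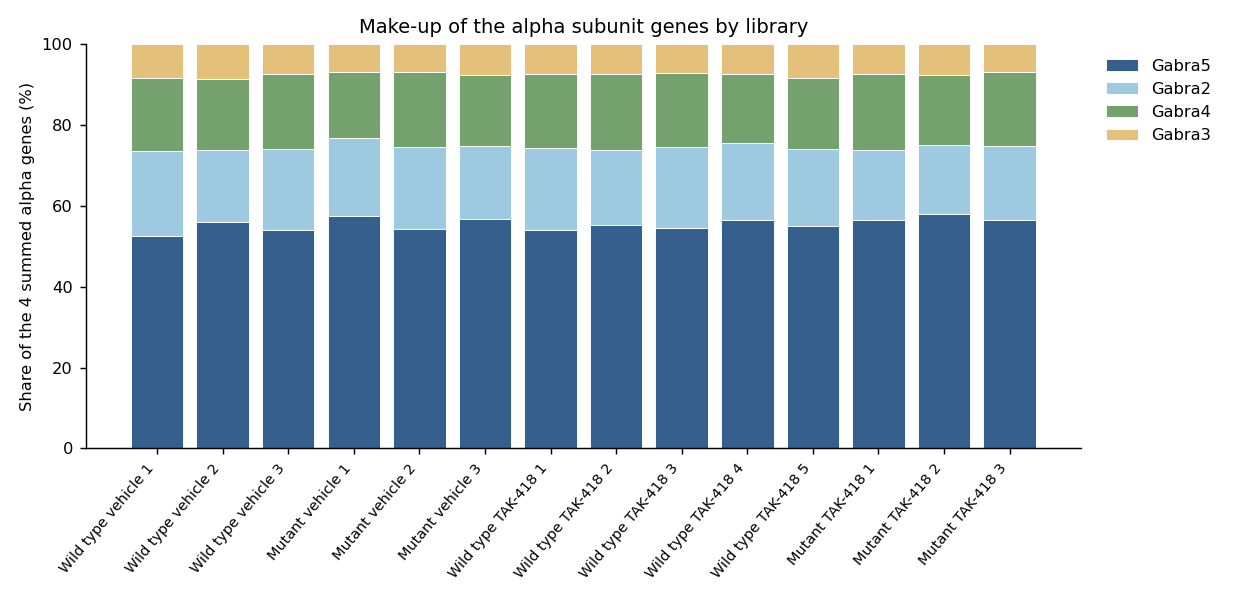
Shares of Gabra5, Gabra2, Gabra4 and Gabra3 in their summed level (vertical axis, percent) in each of the 14 libraries; each bar is 1 library. Gabra5 fills 52.4% to 57.9% of every bar, and the order of the stacked parts in size is close to the same throughout.

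Gabrb2 (ENSMUSG00000007653.12, chr11:42419757-42629028, plus strand), a beta subunit of the most common synaptic receptors, gave the only unadjusted p below 0.05. It was at 43.5, 45.1 and 44.5 FPKM in wild-type vehicle and at 36.5, 38.6 and 43.2 in mutant vehicle libraries. The 2 groups did not overlap on this scale, although mutant vehicle library 3 came close to the lowest wild type. As deposited, before scaling, they did overlap, with 43.9 in mutant vehicle library 3 and 42.7 in wild-type vehicle library 1. With TAK-418 the values were 41.9, 42.0, 37.6, 44.4 and 42.0 in wild types and 43.0, 40.4 and 41.3 in mutants, and these overlapped. Under vehicle the means were 44.3 ± 0.784 in wild types and 39.4 ± 3.41 in mutants (SD, n = 3 each), a fold of 0.889. The log2 difference was -0.17 (SE 0.0653, 95% interval -0.31 to -0.03, unadjusted p = 0.0240, limma adjusted p = 0.826), so it did not pass. Among all genes, 4.49% were lower in mutants with groups that did not overlap.

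The same direction stood in every setting tried for this Gabrb2 difference, from -0.26 to -0.10, and its adjusted p ran from 0.553 to 1. Its unadjusted p was less stable: in 7 of the 26 alternatives none of the 7 genes was below 0.05 under vehicle. Those were upper-quartile scaling, the highest transcript alone, a fit of only the groups compared, and leaving out mutant vehicle library 1, mutant vehicle library 2, wild-type vehicle library 2 or both libraries with the highest choroid plexus sums. In the other alternatives the gene below 0.05 need not be Gabrb2. Without wild-type vehicle library 3, Gabra3 had the smallest limma adjusted p of the 7 (0.752). Mutant vehicle library 1, with the lowest Gabrb2 level, also had the lowest scaling factor (0.849) and the second-highest choroid plexus sum. Without that library the difference was -0.12, and without both libraries with the highest choroid plexus sums it was -0.11. Without mutant vehicle library 3 it was -0.23. The summed level of 7 general neuron markers, all listed in every library, was 2381 to 2456 in wild-type vehicle and 1813 to 2367 in mutant vehicle libraries. The lowest of these sums was in mutant vehicle library 3, which had the highest Gabrb2 level of its group (43.2). Outside the vehicle groups, wild-type TAK-418 library 1 had a lower sum still (1747). Under vehicle 2 of the 7 markers were lower in mutants at an unadjusted limma p below 0.05. All genes at that level in either direction were 5.48% of those tested. Under TAK-418 2 of the 7 were again lower in mutants, beside 4.95% of all genes, with a Gabrb2 difference of 0.0026. The part of these markers in the result was not tested.

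The mean Gabrb2 levels of both treated groups, 41.6 each, lay between those of the vehicle groups. TAK-418 in wild types gave a log2 difference of -0.09 (SE 0.0584, limma adjusted p = 0.682), the smallest p of the 7 genes there, and -0.058 without wild-type TAK-418 library 3. Treated mutants against treated wild types gave 0.0026. The interaction, which compares the genotype effect with and without the drug, was 0.17 (SE 0.0877, unadjusted p = 0.0743, limma adjusted p = 0.976). The vehicle wild types (43.5 to 45.1) and the treated mutants (40.4 to 43.0) did not overlap after scaling either, but touched as deposited (42.7 in wild-type vehicle library 1 and in mutant TAK-418 library 1), with a log2 difference of -0.09 (limma adjusted p = 0.998), where 3.99% of all genes were lower with groups apart.

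Gabrb1 (ENSMUSG00000029212.11, chr5:71658113-72149037, plus strand), the other beta subunit gene of this group, had the highest CV of the 7 genes when abundances were summed. It was at 23.7, 22.6 and 21.9 FPKM in wild-type vehicle and 22.3, 24.8 and 25.7 in mutant vehicle libraries. Under TAK-418 it was at 13.4, 22.0, 21.2, 26.3 and 22.2 in wild types and at 23.2, 35.4 and 24.1 in mutants. Wild-type TAK-418 library 1 was the lowest and mutant TAK-418 library 2 the highest of all 14, while the remaining 12 libraries lay between 21.2 and 26.3. The group means under TAK-418 were 21.01 ± 4.70 (SD, n = 5) in wild types and 27.6 ± 6.78 (SD, n = 3) in mutants. The log2 difference of 0.38 (SE 0.183, unadjusted p = 0.0577) did not pass (limma adjusted p = 0.925), although it was the largest of the 42 in size.

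Those 2 libraries also differed in how the transcript was put together. In wild-type TAK-418 library 1, the deepest library as worked out from the values, the assembled Gabrb1 transcript was 24569 bases long. It ran 10856 bases past the annotated end. In mutant TAK-418 library 2 the gene was split into 3 transcripts, the longest being a single exon of 11653 bases, and 51.8% of the abundance sat on pieces that do not span the coding region. In the other 12 libraries the longest Gabrb1 transcript had 13522 to 13944 bases and stopped 117 to 161 bases short of the annotated end. Multiplying abundance by length, which undoes the division by transcript length, lowered the CV of Gabrb1 from 19.5% to 7.96%, below that of Gabra3 (9.11%). By the highest transcript alone it was 15.4%, below that of Gabra2 (21.02%). On that scale, in kilobases times FPKM, the treated wild types were at 329, 299, 288, 356 and 306 and the treated mutants at 318, 262 and 327. The groups overlapped, although mutant TAK-418 library 2 was now the lowest of all 14, and the log2 difference was -0.052. Which scale lies closer to the true level was not tested. Leaving out mutant TAK-418 library 2 on the first scale gave 0.20, and leaving out wild-type TAK-418 library 1 gave 0.24. Gabrb1 was at 15.9 FPKM in treated mutants and 16.6 in treated wild types in the authors' deposited table, a log2 fold change of -0.06.

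**Figure D4:**
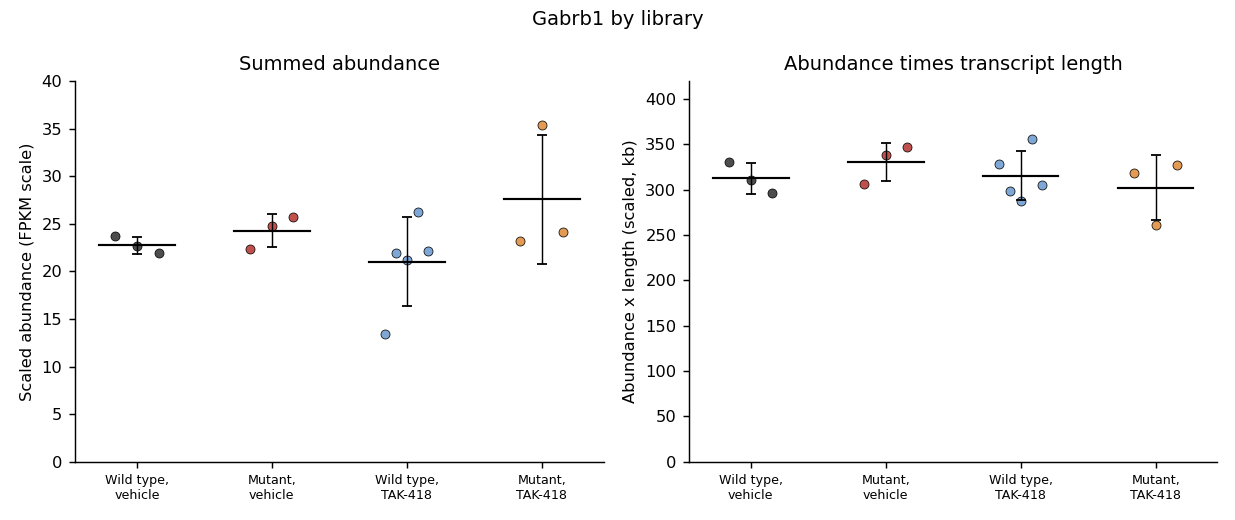
Gabrb1 in each library as summed abundance (left, FPKM scale) and as abundance times transcript length (right, in kilobases times FPKM); points are libraries and bars are the group mean with its SD. The points at 13.4 and 35.4 on the left fall at 329 and 262 on the right, where all libraries lie between 262 and 356.

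The share of Gabrb2 in the sum of Gabrb1 and Gabrb2 was 64.2% ± 4.74 (SD, n = 14). It was 64.7%, 66.6% and 67.0% in wild-type vehicle and 62.1%, 60.9% and 62.7% in mutant vehicle libraries, with no overlap. The difference of -4.22 points had the smallest p that 3 against 3 allow (exact permutation p = 0.1, adjusted 0.5). In treated wild types the share was 75.8%, 65.7%, 63.9%, 62.8% and 65.4%, and in treated mutants 65.0%, 53.3% and 63.1%. The extremes, 75.8% and 53.3%, were the 2 libraries whose Gabrb1 transcripts were assembled differently.

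Gabrd (ENSMUSG00000029054.8, chr4:155384980-155398112, minus strand), the delta subunit of tonic inhibition in granule cells, was the lowest of the 7. Its levels were 13.5, 12.6 and 11.7 FPKM in wild-type vehicle, 11.6, 11.97 and 11.2 in mutant vehicle, 11.98, 13.6, 13.3, 11.5 and 11.4 in wild-type TAK-418, and 11.5, 11.99 and 12.9 in mutant TAK-418 libraries. All 4 groups overlapped, and the group means lay between 11.6 and 12.6. Its difference under vehicle was -0.11 (95% interval -0.28 to 0.06). Markers of dentate granule cells, the cells that carry alpha 4 and delta channels, summed to 237 to 273 in wild-type vehicle and 269 to 281 in wild-type TAK-418 libraries, and 5 of the 7 were higher there at an unadjusted p below 0.05, where 8.43% of all genes were at that level in either direction. Of 6 markers of CA1 pyramidal cells, 3 were lower and 1 higher at that level in the same comparison (median -0.20). Gabrd and Gabra4 differed in that comparison by -0.03 and -0.04 on the log2 scale. In mutants the granule cell markers summed to 250 to 260 with vehicle and 273 to 280 with TAK-418. There 2 of the 7 were higher and none lower at that level, beside 4.4% of all genes. Gabrd and Gabra4 differed by 0.06 and 0.05 with TAK-418 in mutants.

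By direction, the split of the 7 genes differed between comparisons. Under vehicle 5 were lower and 2 higher in mutants (median -0.03), while 49.2% of all genes were lower. That split turned to 3 lower and 4 higher without mutant vehicle library 1 (median 0.02). TAK-418 in mutants left 6 higher and 1 lower (median 0.05), against 49.1% of all genes lower, and 4 and 3 without mutant vehicle library 1 or without mutant TAK-418 library 2. TAK-418 in wild types left all 7 lower (median -0.04), against 51% of all genes, and this split depended on the setting. It was 6 lower with no scaling, 5 without wild-type vehicle library 1, 4 with the highest transcript alone and 3 with upper-quartile scaling. Genotype under TAK-418 left 5 higher and 2 lower (median 0.0037), against 48.9% of all genes lower, a split that became 2 higher and 5 lower with no scaling or with the highest transcript alone, and 3 and 4 with upper-quartile scaling. Treated mutants against vehicle wild types had 3 higher and 4 lower (median -0.05), and the interaction 6 higher and 1 lower (median 0.09), where 50% and 48.9% of all genes were lower. The median over all genes was between -0.0035 and 0.0044 in each of the 6 comparisons. Shared control libraries link several of these comparisons, and none of the directions rests on a gene that passed the test.

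The authors' deposited tables gave the same genes no call. They hold 1 pooled value per group for 4 pairs of groups, and none of the 28 entries of the 7 genes had a q-value at or below 0.05. The smallest q-value of these entries was 0.705 and the smallest p-value 0.1716, both for Gabrb2. In the authors' deposited tables, 0.224% of tested loci passed for mutant against wild-type vehicle, 0.218% for mutant against wild-type TAK-418, 0.324% for mutant TAK-418 against wild-type vehicle and 0.611% for mutant vehicle against wild-type TAK-418. In the authors' deposited table for genotype under vehicle, Gabrb2 was at 28.6 FPKM in mutants and 32.0 in wild types, a log2 fold change of -0.16, and Gabra5 at 108.5 and 101.1. Over the authors' deposited tables the log2 fold changes of the 7 genes ran from -0.16 to 0.10.

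Beyond the totals, the assembled transcripts showed which coding segments the libraries left out. In 5 of the 7 genes, 8 distinct stretches of coding exon were missing from some transcripts. Those recurring in 6 or more libraries lay in Gabra2, Gabra4 and Gabrb2, and they are printed here because each shifts the reading frame, as is a further Gabrb2 exon that does not. Sequences are from the GRCm38 transcripts of GENCODE M21, 5′ to 3′ on the gene's strand. In the first and second lines the capitals mark the closing AG, the dinucleotide just ahead of the inner splice acceptor. The Gabra2 line is chr5:71014576-71014636 (minus strand), in the part that codes for the extracellular domain. The Gabra4 line is chr5:71623981-71624114 (minus strand), coding for the end of the pore-lining segment and most of the next membrane-spanning segment. The Gabrb2 lines are chr11:42421552-42421643 (plus strand), at the start of the extracellular domain, and chr11:42602115-42602228 (plus strand), in the large intracellular loop, and they have no capitals because whole exons are skipped.
Gabra2 segment of 61 bases: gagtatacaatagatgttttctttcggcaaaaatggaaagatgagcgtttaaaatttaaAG
Gabra4 segment of 134 bases: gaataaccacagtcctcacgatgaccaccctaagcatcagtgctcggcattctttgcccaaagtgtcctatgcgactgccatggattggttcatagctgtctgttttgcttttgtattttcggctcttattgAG
Gabrb2 exon of 92 bases: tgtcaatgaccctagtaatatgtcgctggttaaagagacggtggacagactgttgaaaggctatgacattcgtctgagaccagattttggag
Gabrb2 exon of 114 bases: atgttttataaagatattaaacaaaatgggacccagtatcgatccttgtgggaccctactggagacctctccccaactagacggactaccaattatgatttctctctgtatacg

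The Gabra2 segment was skipped, through an inner acceptor that GENCODE M21 lists, in 13 of 14 libraries. Its loss took 18.4% of the abundance at that junction in the median library with it, from 5.42% to 81.1%. The skipping share was 81.1%, 22.7% and 8.15% in wild-type vehicle and 5.42%, 22.6% and 0% in mutant vehicle libraries. It was 18.4%, 35.3%, 24.2%, 9.42% and 8.09% in wild-type TAK-418 and 29.1%, 18.2% and 10.8% in mutant TAK-418 libraries. Wild-type vehicle library 1 stood far above the rest, and the groups overlapped. In that library 54.8% of the Gabra2 abundance sat on transcripts that do not span the coding region. In wild-type vehicle library 2 that part was 55.2%, with a skipping share of 22.7%. Pieces that do not reach the junction are left out of these skipping shares. Because 61 bases are 20 whole codons and 1 base, the open reading frame of 451 codons closes after 87 codons without them, 85 of which precede the segment.

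The Gabra4 segment was skipped in 11 of 14 libraries through a junction that GENCODE M21 does not list. Its share was 7.33%, 8.75% and 10.6% in wild-type vehicle and 0%, 17.9% and 11.1% in mutant vehicle libraries. With TAK-418 it was 9.23%, 6.70%, 9.72%, 0% and 0% in wild types and 7.72%, 9.33% and 15.2% in mutants. Low shares of a like size thus recurred in all 4 groups. The loss of 134 bases, 44 codons and 2 bases, shortens the open frame from 552 to 359 codons, with 291 ahead of the segment.

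The 92-base exon of Gabrb2 was skipped in 6 of 14 libraries, again by a junction absent from GENCODE M21. The share was 20.6%, 0% and 0% in wild-type vehicle libraries and 0% in all 3 mutant vehicle libraries. It was 17.9%, 22.4%, 0%, 19.6% and 0% in wild-type TAK-418 and 23.5%, 27.0% and 0% in mutant TAK-418 libraries. Where the form was found its share stayed within 17.9% to 27.0%, and a share of 0% means that no such transcript was assembled, not that the form was lacking. Without the exon the frame closes after 35 codons, in place of 512 in the reference transcript, which holds the 114-base exon described next. The 114-base exon, 38 whole codons, belongs to the long form of the beta 2 subunit. It was assembled in mutant vehicle library 3 alone, at 7.71% of the abundance at that junction. All other Gabrb2 transcripts assembled across that place skipped it, which by itself leaves the frame open for 474 codons.

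**Figure D5:**
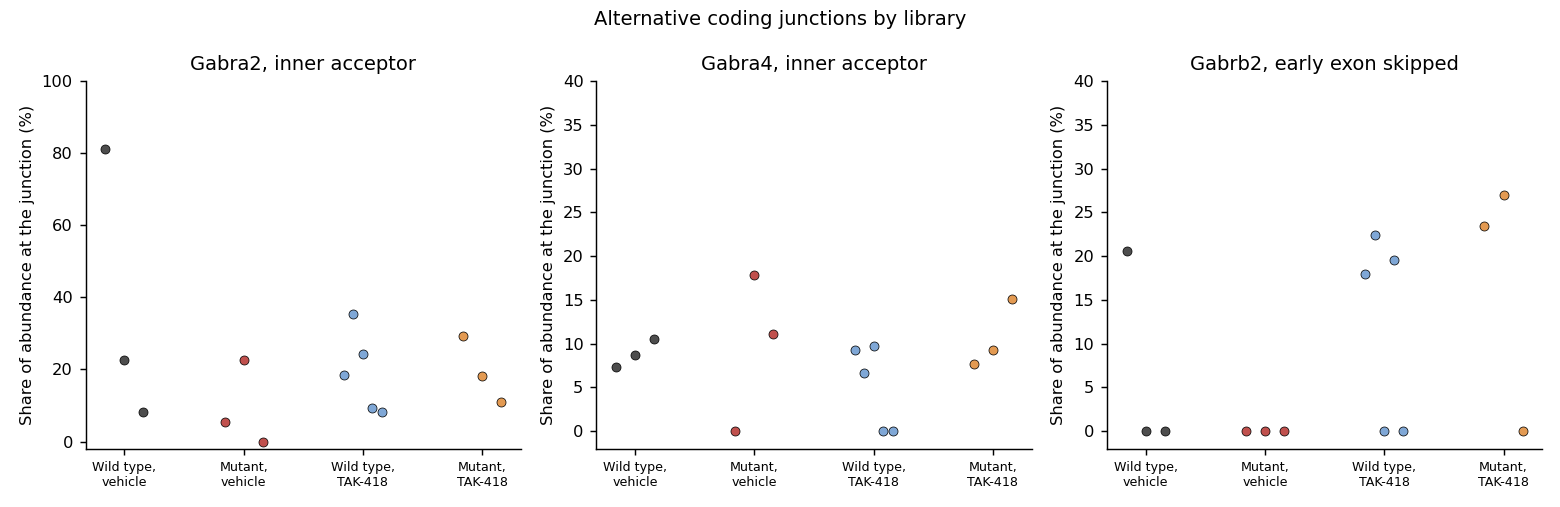
Share of abundance at the junction that skips the Gabra2 segment of 61 bases, the Gabra4 segment of 134 bases and the Gabrb2 exon of 92 bases (vertical axes, percent, with different upper limits) in each library of the 4 groups. Points at 0 are libraries in which no such transcript was assembled, and a Gabra2 point at 81.1% stands apart in the wild-type vehicle group.

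Rarer skipped segments were each found in 1 to 3 libraries. They were the Gabra2 exon that holds the segment above, in either of its forms (3 libraries, 4.19% to 6.90%), Gabra3 exons of 68 and 122 bases (1 library each, 6.63% and 4.83%), and a Gabrd exon of 156 bases (1 library, 4.77%). A Gabra3 exon of 78 bases ahead of the coding sequence, at chrX:72644438-72644515, appeared in 3 libraries at 5.95% to 14.2%. These shares are descriptions of the assembled transcripts, and they were not tested between groups.

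Promoter windows were looked at because KMT2D and LSD1 act on a histone mark of promoters. RefSeq windows of 300 bases (250 before the start and 50 after, GRCm38.p6) were given for 6 of the 7 genes, 10 windows in all. The count of CG pairs, which marks CpG islands, differed widely among them. It was 25 for Gabra2, 12 for Gabra4, 13 for Gabra5, 9 to 11 for 3 windows of Gabrb2 and 0 for both windows of Gabra3, against a median of 7 over 32851 windows. At least 25 CG pairs are in 18.4% of all windows, at least 9 in 45.8% and none in 5.43%. Of the motifs searched on both strands, GGGCGG was in 3 of the 10 windows and in 35.7% of all windows, TATAAA in 3 and 13.6%, and CCAAT in 6 and 37.4%. Both windows of Gabra3 hold TATAAA and CCAAT, and they overlap, so these counts are not of independent stretches. Of the 6 genes with a window, Gabrb1 alone had no CCAAT.

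Gabrb1 has a pair of RefSeq starts 42011 bases apart with unlike promoters, 25 CG pairs at the upstream and 9 at the downstream start. Apart from the single-exon piece in mutant TAK-418 library 2, most assembled Gabrb1 abundance began near the downstream start. The upstream start lies within Gabra4, near the start of that gene on the opposite strand, and how reads there were divided is not known. In mutant vehicle library 3 the transcript from it was a piece of 2 exons and 385 bases. Transcripts used this start in 3 libraries, wild-type vehicle library 2 (11.97%) and mutant vehicle libraries 1 and 3 (12.8% and 0.432%), and in none of the 8 TAK-418 libraries. No test was made of that count. The 250 bases ahead of the downstream start (chr5:71699682-71699931, plus strand, RefSeq, GRCm38.p6) are printed to show where its 6 CG pairs lie, marked in capitals.
Gabrb1 upstream bases: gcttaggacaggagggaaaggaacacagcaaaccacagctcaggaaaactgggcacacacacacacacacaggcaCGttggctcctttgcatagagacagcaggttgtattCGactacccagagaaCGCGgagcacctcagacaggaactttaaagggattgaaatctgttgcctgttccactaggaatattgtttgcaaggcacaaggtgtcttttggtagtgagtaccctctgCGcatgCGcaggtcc

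Genes around the receptors gave no call either. Of 127 tested genes on 15 lists, none had an adjusted p below 0.05 in any of the 6 limma comparisons. The list of receptor scaffold, assembly and trafficking genes (19 of 20 tested), which includes gephyrin, had no gene at an unadjusted p below 0.05 for genotype under vehicle or for TAK-418 in mutants. For TAK-418 in wild types 4 of these 19 were higher and none lower at that level (median 0.04). For genotype under TAK-418 1 was higher and 4 were lower (median -0.0086). The same 4 genes are counted in both comparisons, which share the 5 wild-type TAK-418 libraries, so these are not 2 separate results. All genes at that level in either direction were 8.43% and 4.95% of those tested in these comparisons, 5.48% for genotype under vehicle and 4.45% for the interaction. Of 10 genes for GABA synthesis, transport and breakdown, 2 were higher with TAK-418 in wild types at that level and none in the comparisons that involve mutants, apart from 1 lower in the interaction. Of 5 genes of GABA-B receptors and their partners, 1 was higher and 1 lower with TAK-418 in wild types. Neither chloride transporter gene, Slc12a5 or Slc12a2, reached an unadjusted p below 0.05 in any comparison. In the whole subunit family, 2 of 16 genes were lower under vehicle in mutants at that level, Gabrb2 and the sparsely listed Gabrr2. With TAK-418 in wild types 2 of the 16 were lower, and in the interaction 2 were higher. Markers of GABAergic interneurons, the main source of GABA, summed to 672 to 685 in wild-type vehicle and 645 to 694 in mutant vehicle libraries. With TAK-418 they summed to 569 to 760 in wild types and 620 to 737 in mutants. Of these 12 markers, 1 was higher at that level for genotype under vehicle and 2 for TAK-418 in wild types. For TAK-418 in mutants 1 was higher, beside 4.4% of all genes. For treated mutants against vehicle wild types 3 were higher, beside 5.38%, and in the interaction 1 was lower.

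Across the 14 libraries the 7 genes varied largely apart from each other. The highest correlation of log2 levels between any pair was 0.66 (Pearson's r, Gabra3 and Gabrb2) and the lowest -0.49 (Gabra5 and Gabrd). As a description over 13267 genes, the gene most like each was Rnmt for Gabra2 (r = 0.81), Baalc for Gabra3 (0.83), Gpbp1 for Gabra4 (0.88), Luzp2 for Gabra5 (0.88), Irak1 for Gabrb1 (0.90), Nceh1 for Gabrb2 (0.90) and Nop56 for Gabrd (0.89). Each of these is the highest of 13267 values from 14 libraries, so a high r can arise without any link. The next gene reached 0.79, 0.83, 0.87, 0.88, 0.88, 0.88 and 0.89 in the same order. All points share their library's depth and scaling. The value for Gabrb1 rests on levels that moved with the assembly of 2 libraries, as described above.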

How the data were processed

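RNA-seq of 14 mouse hippocampus libraries was analysed from deposited tables. Per the file headers, the authors' transcript files come from CLASS 2.1.7, and each deposited transcript carries an abundance score, read here as FPKM from its values because no header names the scale. The submitters' processing notes name mm10, FastQC and TopHat2 2.1.0 without a role. The authors also deposited 4 comparison tables with pooled FPKM values, log2 fold changes, p-values and q-values. Of these, q-values at or below 0.05 count as called.

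Transcripts were assigned to GENCODE M21 genes (GRCm38, which is mm10) by a shared intron, or for single exons by at least 50% overlap, and their abundances were summed. Scaling used median-of-ratios factors from 13274 genes. Genes with a value in at least 3 libraries (16580 of 18735) were tested on log2(value + 0.9), 0.9 being the 10th percentile of values, with limma 3.58.1 in R 4.3.3 (lmFit, eBayes with trend). The fit held 4 group means over the 14 libraries, with 6 contrasts and Benjamini-Hochberg adjustment over all genes, and its script was tested on simulated data. Other steps used pandas 2.3.3, numpy 2.4.6, matplotlib 3.10.9 and scipy 1.17.1 in Python 3.11.15. No source used here says how reads in overlapping genes were divided. Relative depth came from the step size of abundance times length in single-exon transcripts, where 90.0% to 98.0% of values were within 0.1 of a whole step. For 1 library a harmonic (a multiple or fraction) of the step was found first. The rule for picking the step was then set after seeing the values. The part of whole steps was lowest (90.0%) in wild-type TAK-418 library 1, and the size of its lead in depth is uncertain.

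Groups came from the labels. The series text gives 3-4 mice per group, while 5 are labelled wild-type TAK-418. Each library has its own number in the labels and is taken as 1 mouse; if any shared a mouse, p-values would measure only the spread between libraries. The labels name 2 versions of the library kit but not which library had which, so no batch could be formed.

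The results named are those with an unadjusted p below 0.05 or, failing that, the smallest p of a comparison. The members, lists and tests were chosen with earlier results of these data known. Other scalings, pseudocounts, filters, definitions of a gene's level, a term for Xist and the leaving out of libraries were tried. Xist was present in 2 of 3 wild-type vehicle and 1 of 3 mutant vehicle libraries. Under TAK-418 it was present in 2 of 5 wild types and 1 of 3 mutants, so the groups were not balanced in it. A few further subunit genes are not reported here, which departs from the rule that the whole family be given by level.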

Additional observations from a re-analysis of the deposited data

Results flagged for a closer look

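Libraries standing apart were looked for in the wild-type TAK-418 group, the only one with more than 3 libraries, over 15 quantities (levels, shares and forms), and 2 were found. Such a search picks out about 1 in 20 groups by chance. The share of Gabrb2 in the sum of Gabrb1 and Gabrb2 was 75.8% in wild-type TAK-418 library 1, and the nearest of the other 4 libraries was at 65.7%. By abundance times length the share in that library was 48.4%, inside the range of 45.8% to 53.1% over all 14. The middle first exon of Gabra5 joined through the extra exon carried 88.3% of the gene's abundance in wild-type TAK-418 library 2, against 21.8% in the nearest of the others. The summed level of Gabra5 in that library, 122 FPKM, equalled that of library 3 of its group.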

How the results depend on the processing

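No subunit gene was called in any comparison under any alternative, and the smallest adjusted p was 0.476 (Gabra3, TAK-418 in wild types, without the 2 libraries with the highest choroid plexus sums). Counts of called genes over the whole table were small and moved. As reported they were 0 (genotype under vehicle), 1 (TAK-418 in mutants), 0 (TAK-418 in wild types), 2 (genotype under TAK-418), 1 (mutants with TAK-418 against wild types with vehicle) and 1 (interaction), and alternatives are given in that order where they moved. A pseudocount lower by a factor of 10 gave 1, 2, 4, 4 and 6 in the first to the fifth comparison, and one higher by 10 times gave 2 in the second and the fifth. No filter gave 1, 2, 2, 5, 3 and 2. The highest transcript gave 1, 2, 3, 8 and 2 in the first to the fifth. Abundance times length gave 2, 3, 3, 4 and 3 in all but genotype under TAK-418. Limma without trend gave 1, 2, 2, 4, 4 and 3. Fits of only the groups compared gave 6, 17, 7 and 11 in the first to the third and the fifth. Leaving out both choroid-rich libraries gave 5, 7, 1, 2 and 5 in all but genotype under TAK-418. Multi-exon transcripts alone gave 0 in all 4 comparisons with a call. No scaling gave 1 for genotype under TAK-418, and upper-quartile scaling gave 3 in the fifth comparison. Leaving out 1 library gave 0 to 6, 1 to 8, 0 to 2, 1 to 7, 1 to 6 and 0 to 8. With no scaling the median of the 7 genes was -0.11 for genotype under vehicle (-0.03 as reported) and -0.084 for genotype under TAK-418 (0.0037 as reported), beside medians of all genes of -0.076 and -0.075. Abundance times length turned 3 values: Gabra2 with TAK-418 in mutants to 0.00071 on the log2 scale, its share there to 0.396 points and Gabrb1 for genotype under TAK-418 to -0.052. The cause of these moves was not tested. No paired analysis was possible because each library has only a number of its own in the labels, and none that is shared between groups. Depth limits the forms: 1 library came out deeper than the rest, by an uncertain margin, and a form at 0 may have been missed.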
